A study of Mus musculus with 20 samples.

Results

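The calcium/calmodulin-dependent protein kinases (CaM kinases) were described in cultured mouse cerebellar granule neurons after loss of Kdm6b, an enzyme that strips the silencing methyl groups set by Polycomb from histone H3. The 10 genes were taken by symbol from a table of 24411 genes: the 4 CaMKII subunits Camk2a, Camk2b, Camk2d and Camk2g, the nuclear kinase Camk4, the upstream kinases Camkk1 and Camkk2, the CaMKI isoforms Camk1d and Camk1g, and the pseudokinase Camkv. All 10 were found, and all 10 were among the 15284 genes that passed the expression filter.

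The 4 groups were control cultures, cultures given an shRNA against mouse Kdm6b (shKdm6b), cultures given the shRNA together with the active enzymatic domain of human KDM6B (the active rescue), and cultures given it together with a catalytically dead version (the dead rescue). Virus was added on day 1 in vitro, the antimitotic AraC on day 2, and RNA was harvested on day 7 in all groups. There were 5 libraries per group, with numbers from 1 to 5. The labels give neither the virus that control cultures received nor the strain and age of the animals, and the rescues carry the enzymatic domain alone, not the whole protein. They also do not say that libraries came from separate cultures, and the p-values below cover only the spread from library to library.

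CaM kinases turn a rise in cellular calcium into protein phosphorylation. Calcium binds calmodulin, and the complex releases the kinase domain from its own inhibitory segment. CaMKII is a large ring of alpha, beta, delta and gamma subunits that can keep itself active by phosphorylating its neighbours. The alpha subunit is the main form in forebrain excitatory neurons, whereas the beta subunit, which binds actin, is prominent in the cerebellum. CaMKI and CaMKIV are monomers that need a further phosphate from a CaM kinase kinase, and CaMKIV, abundant in granule neurons, acts on transcription factors such as CREB in the nucleus.

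Library totals ran from 14200745 to 21179300 estimated counts. Kdm6b itself was at 144 ± 40.5 CPM (estimated counts scaled to a library of 1000000; SD, n = 5) in control, 82.9 ± 28.3 in shKdm6b, 212 ± 109 in the active rescue and 175 ± 92.2 in the dead rescue. It was lower in shKdm6b than in control in 5 of 5 same-numbered pairs (mean log2 difference -0.83, exact two-sided permutation p = 0.0317, adjusted over 6 comparisons 0.19). The edgeR fit that pairs libraries by number, described below, called Kdm6b lower (log2 fold change -0.88 ± 0.21 (SE), adjusted p = 0.0231). Without pairing its log2 fold change was -0.79, which did not pass. In the rescues Kdm6b differed between library numbers. In numbers 1 to 3 it was at 290, 312 and 266 CPM in the active and 271, 250 and 192 in the dead rescue, above the same-numbered controls (141, 171 and 139). In numbers 4 and 5 it was at 73.1 and 119 CPM in the active and 54.8 and 109 in the dead rescue, below the same-numbered controls (81.2 and 187) and above shKdm6b (37.9 and 76.4). Whether reads of the human domain were counted as Kdm6b was not tested. The summed level of 10 granule neuron markers ran from 2420 to 6070 CPM in control and from 1700 to 5740 in shKdm6b. All 10 were detected at 1 CPM or more. Astrocyte markers (1110 to 7270 CPM in control) and meningeal fibroblast markers (3580 to 23800) were also present, so RNA of other cells was in the cultures. The libraries numbered 4 stood apart in every group. They had the lowest granule marker sum of their group (2420, 1700, 2240 and 2740 CPM in control, shKdm6b, active and dead rescue) and the highest astrocyte sum (7270, 6700, 8180 and 7240).

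The promoters of 3 members are shown because Camk2b, Camkk1 and Camkv are the members with a promoter sequence here that the paired edgeR fit described below called in a comparison with control. Each runs from 250 bases before to 50 bases after the annotated start (RefSeq, GRCm38.p6), and a sequence was matched for 7 of the 10 members. Capitals mark a GC box (GGGCGG), the core of a cyclic-AMP response element (TGACG) or an E-box (CAGCTG), each searched on both strands, so the reverse complement is also in capitals. Neighbouring GC boxes may share a letter. The Camk2b promoter lies at chr11:6065699-6065998 on the minus strand, that of Camkk1 at chr11:73018738-73019037 on the plus strand, and that of Camkv at chr9:107935670-107935969 on the plus strand.
Camk2b: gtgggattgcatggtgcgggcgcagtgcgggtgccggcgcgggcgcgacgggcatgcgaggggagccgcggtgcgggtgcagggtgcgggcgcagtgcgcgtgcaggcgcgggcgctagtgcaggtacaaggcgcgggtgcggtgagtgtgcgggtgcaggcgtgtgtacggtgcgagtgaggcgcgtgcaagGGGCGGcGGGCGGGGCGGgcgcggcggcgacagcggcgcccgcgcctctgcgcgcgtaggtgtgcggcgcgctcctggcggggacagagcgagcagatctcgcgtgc
Camkk1: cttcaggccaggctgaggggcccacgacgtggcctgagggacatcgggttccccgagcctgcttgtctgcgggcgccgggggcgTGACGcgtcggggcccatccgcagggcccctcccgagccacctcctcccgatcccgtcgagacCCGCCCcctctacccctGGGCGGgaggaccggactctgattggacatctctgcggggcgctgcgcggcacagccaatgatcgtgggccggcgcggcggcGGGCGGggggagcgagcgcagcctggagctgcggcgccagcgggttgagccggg
Camkv: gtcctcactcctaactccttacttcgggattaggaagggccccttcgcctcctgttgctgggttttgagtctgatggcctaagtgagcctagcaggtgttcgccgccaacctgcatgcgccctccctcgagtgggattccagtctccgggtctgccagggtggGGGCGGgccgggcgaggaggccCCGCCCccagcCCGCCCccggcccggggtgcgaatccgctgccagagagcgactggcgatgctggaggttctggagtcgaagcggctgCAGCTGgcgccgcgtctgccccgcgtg

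All 3 were rich in CpG dinucleotides. The Camk2b window held 51 CpG dinucleotides at 77.3% GC, more CpG than 99.3% of the 32851 promoters in the table. Camkk1 had 36, more than 93.8% of promoters, and Camkv had 25, more than 81.6%. Each window held 3 GC boxes, a motif found in 35.7% of all promoters. The Camkk1 window alone of these 3 held a TGACG core (20.8% of promoters), and the Camkv window alone held a CAGCTG E-box (16.3%). Promoters of members that the paired fit did not call were CpG-rich as well. Camkk2 had 42 CpG dinucleotides (more than 97.0% of promoters), Camk2d 31 (89.4%) and Camk1d 29 (87.1%). A second Camk1d promoter had 5 (38.0%), and the Camk1g promoter 1 (5.43%). Camk2d and the first Camk1d promoter also held 3 GC boxes, while Camkk2 and the second Camk1d promoter held 1. The Camk1g promoter held no GC box, but like that of Camkv it held a CAGCTG E-box. These matches describe the letters in the windows only.

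The CaM kinases spanned a wide range of levels in control neurons. Levels between genes were compared as CPM per kilobase of the longest coding transcript. Camk4 was highest at 279 ± 135 CPM per kb (SD, n = 5), followed by Camk2b at 120 ± 35.4, Camk2d at 49.8 ± 16.9 and Camkk2 at 36.9 ± 14.4. Camk2g was at 18.2 ± 2.19, Camkk1 at 7.39 ± 1.49 and Camk1d at 2.54 ± 0.406. At the bottom were Camk1g at 0.870 ± 0.119, Camk2a at 0.782 ± 0.283 and Camkv at 0.408 ± 0.429. Neighbours in this order overlapped between libraries from Camk4 down to Camk2g and among the lowest 3 genes, although Camk4 exceeded Camk2b, and Camk2b exceeded Camk2d, in each of the 5 libraries. There was no overlap between Camk2g and Camkk1, between Camkk1 and Camk1d, or between Camk1d and Camk1g. Camk1g and Camk2a changed places when the median coding transcript length was used. In RNA of control cultures the beta, delta and gamma subunits of CaMKII lay above the alpha subunit. Which cells of the culture the RNA came from was not tested.

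**Figure D1:**
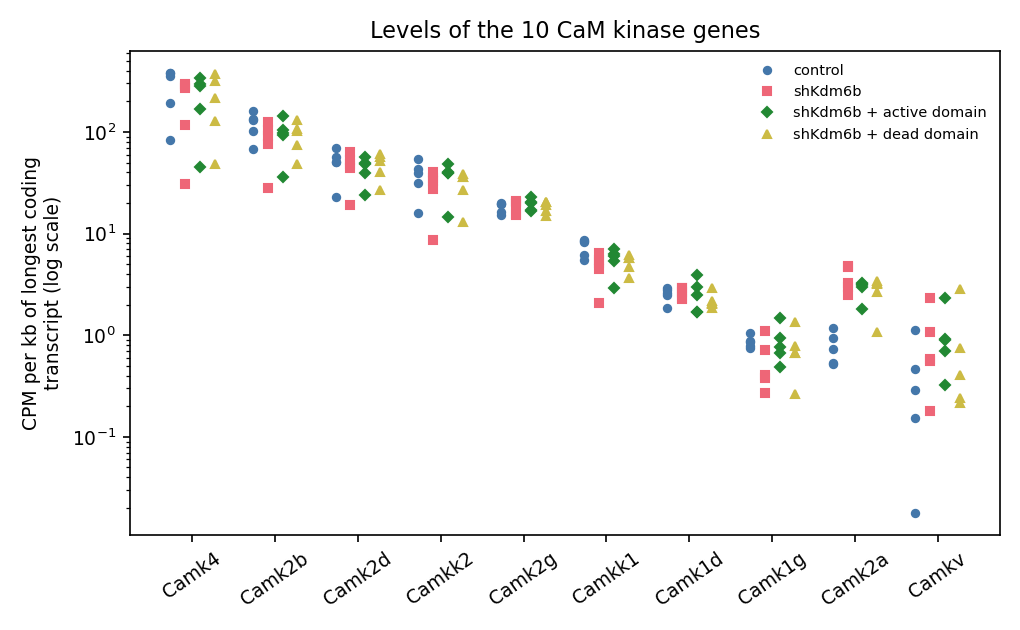
Level of each CaM kinase gene in every library, in CPM per kilobase of the longest coding transcript on a log axis, with 1 point per library and 4 groups of 5 libraries. Camk4 and Camk2b lie at the top in every group, and Camk2a moves from 0.782 in control to 3.64 in shKdm6b (means).

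In shKdm6b the order changed at its lower end. Camk2a moved from the ninth to the seventh place, at 3.64 ± 1.05 CPM per kb, and lay above Camk1d in 5 of 5 libraries, although their ranges overlapped. It held the seventh place in the active rescue (2.88 ± 0.61) and in the dead rescue (2.72 ± 0.956) as well. By median transcript length it went from the eighth to the sixth place.

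Against control, shKdm6b neurons had more Camk2a and, in the fit that pairs libraries by number, less Camk2b, Camk4 and Camkk1. The fit without pairing called 1 of the 10 genes, Camk2a, higher, and 0 lower (edgeR's quasi-likelihood test, Benjamini-Hochberg adjusted p under 0.05 over all genes), where 0.00654% of all tested genes were called. The paired fit called 4 of 10, 1 higher and 3 lower, where 4.14% of all genes were called, 1.72% higher and 2.41% lower. The members were chosen with earlier results of these data known, so the excess over these shares is a description and not a test of the family. The median log2 fold change of the 10 genes was -0.27 in the paired fit and -0.23 without pairing, beside 0.01 over all genes in each. In bulk RNA, fewer cells of a type and less RNA per cell cannot be told apart.

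Camk2a encodes the alpha subunit of CaMKII (ENSMUSG00000024617.16, chr18:60925618-60988152, plus strand, GRCm38, GENCODE M21). Its level in control libraries 1 to 5 was 3.67, 5.89, 4.66, 2.60 and 2.63 CPM, from 44 to 118 estimated counts. In shKdm6b it was 23.2, 24, 16.1, 12.3 and 14.8 CPM, from 244 to 452 counts. Every shKdm6b library lay above every control library. The log2 fold change was 2.25 ± 0.22 (SE) in the paired fit (adjusted p = 4.07e-05) and 2.21 ± 0.31 without pairing (adjusted p = 0.0157, edgeR). The 5 pairs differed by 2.64, 2.02, 1.78, 2.22 and 2.47 on the log2 scale. The paired call held in 20 of 20 fits that left out 1 library each, with log2 fold changes from 2.11 to 2.35. Without pairing, the call was lost without control 1 (adjusted p = 0.1), control 3 (0.0558), control 5 (0.0985), shKdm6b 1 (0.0704) or shKdm6b 2 (0.0677). It was 2.17 (paired fit, adjusted p = 4.36e-05) in the libraries numbered 1 to 3 alone and 2.39 (0.418) in those numbered 4 and 5.

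Neither form of the enzymatic domain returned Camk2a to its control level. In the active rescue Camk2a was at 14.7, 16.2, 16, 15.5 and 8.98 CPM, all above the highest control library. In the dead rescue it was at 13.2, 16.4, 15.7, 16.8 and 5.38 CPM, and the last of these lay below control 2, so that the groups overlapped by 1 library. Paired log2 fold changes against control were 1.90 ± 0.21 for the active rescue (adjusted p = 0.000281, edgeR) and 1.78 ± 0.21 for the dead rescue (adjusted p = 0.000729). Without pairing neither passed (adjusted p = 0.118 and 0.108, edgeR). Both passed without pairing when dead rescue 5 was left out (adjusted p = 0.013 and 0.00944), and in DESeq2 (3.38e-05 and 0.00012). A paired fit of the active rescue and control libraries alone gave an adjusted p of 0.0538 (edgeR). In numbers 1 to 3 alone the log2 fold changes were 1.73 and 1.69, and in numbers 4 and 5 alone 2.14 and 1.94, for the active and dead rescue.

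Set against shKdm6b, the rescues were lower in Camk2a by an amount that no test called. The log2 difference was -0.35 ± 0.20 for the active rescue and -0.46 ± 0.20 for the dead rescue (paired edgeR fit, adjusted p = 1 each), and 4 of 5 pairs were lower in each. The active and dead rescues differed by 0.12 ± 0.20 (adjusted p = 1), with 3 of 5 pairs higher in the active rescue. In the comparison of the active rescue with shKdm6b, of the dead rescue with shKdm6b and of the active with the dead rescue, 0 of 10 genes were called with or without pairing, where the paired fit called 0.00654%, 0.0% and 0.00654% of all genes. At an unadjusted p under 0.05 the paired fit had 1 gene in each of these 3 comparisons, namely Camkk2, Camk2a and Camkk2, and DESeq2 with and without pairing also called 0 after adjustment.

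**Figure D2:**
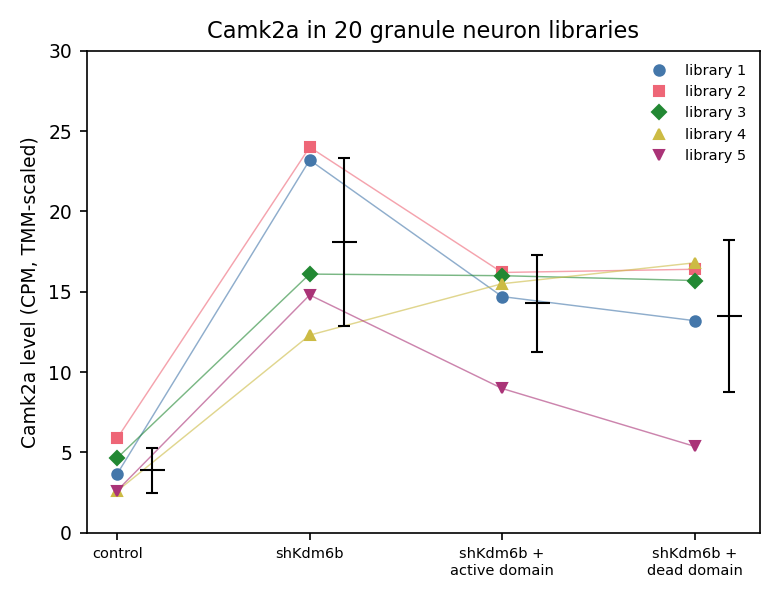
Camk2a level in CPM in each library of the 4 groups. Points joined by a line share a library number, and the black bars give the group mean ± SD (n = 5). Camk2a averages 3.89 in control against 18.1, 14.3 and 13.5 in shKdm6b, active and dead rescue.

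Markers of the neurons in which Camk2a is best known were measured beside it. The summed level of 6 forebrain excitatory neuron markers ran from 6.43 to 9.38 CPM in control and from 4.28 to 9.13 in shKdm6b, and 0 of the 4 that passed the expression filter were called in the paired fit. The summed level of 6 Purkinje cell markers ran from 61.0 to 132 CPM in control and from 68.2 to 139 in shKdm6b, again with 0 of 4 tested markers called, and Pcp2 was at 0 in every group. Among the 10 granule neuron markers, the paired fit called Pax6 higher (log2 fold change 0.41 ± 0.11) and Cbln3 (-0.77 ± 0.13), Etv1 (-1.02 ± 0.18) and Slc17a7 (-0.95 ± 0.26) lower. Of 6 interneuron markers, Gad1 (-0.60 ± 0.11) and Slc32a1 (-0.29 ± 0.07) were called lower and Pax2 (1.05 ± 0.22) higher. Of 8 oligodendrocyte lineage markers Cspg4 was lower (-0.59 ± 0.14), and of 6 microglia markers Tmem119 (-0.67 ± 0.17). The summed granule, interneuron and fibroblast marker levels were each lower in shKdm6b than in control in 5 of 5 pairs, from 148 to 382 CPM in control and 114 to 304 in shKdm6b for the interneuron list and from 3450 to 18200 in shKdm6b for the fibroblast list. The summed level of unipolar brush and nuclear neuron markers was higher in shKdm6b in 5 of 5 pairs. It ran from 21.7 to 43.9 CPM in control and from 22.7 to 57.0 in shKdm6b. No marker of that list (0 of 5), of the astrocyte list (0 of 7) or of the fibroblast list (0 of 6) was called. The paired fit called 4.14% of all genes here (1.72% higher, 2.41% lower), so 0 called in lists this short is near that share. It does not show that the levels of these markers were equal. The part of these marker shifts in the CaM kinase values was not tested.

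Camk2b encodes the actin-binding beta subunit (chr11:5969644-6066362, minus strand), whose CpG-rich promoter is shown above. Control libraries had 541, 649, 413, 276 and 531 CPM, and shKdm6b libraries 417, 504, 304, 112 and 369. The groups overlapped widely because libraries differed by number, yet shKdm6b was lower in each of the 5 pairs. The log2 fold change was -0.60 ± 0.12 in the paired fit (adjusted p = 0.00835) and -0.50 without pairing (adjusted p = 1, edgeR). The largest pair difference was -1.30, in number 4, and the others ran from -0.53 to -0.37. Without the libraries numbered 4 the paired log2 fold change was -0.45 (adjusted p = 0.000746, edgeR). It was -0.39 (0.0249) in numbers 1 to 3 alone and -0.92 (0.485) in numbers 4 and 5 alone. In both rescues Camk2b was lower than control in 5 of 5 pairs, at -0.41 (adjusted p = 0.101) and -0.40 (0.147) in the paired edgeR fit, short of the threshold. Both passed without the libraries numbered 4, at -0.30 (adjusted p = 0.0224, paired edgeR) and -0.38 (0.00834), and in DESeq2 with pairing (0.0203 and 0.0434).

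Camk2d and Camk2g, the delta and gamma subunits, showed no called difference. Camk2d, broadly expressed and best known in heart, was at 275 ± 93.5 CPM in control, 254 ± 92.6 in shKdm6b, 242 ± 70.6 in the active rescue and 261 ± 76.5 in the dead rescue. Camk2g, which carries calmodulin towards the nucleus in cultured neurons, was at 67.4 ± 8.10, 68.2 ± 9.81, 71.9 ± 9.42 and 67.8 ± 9.13 CPM in the same order. Paired log2 fold changes in shKdm6b were -0.13 (adjusted p = 0.61) for Camk2d and 0.02 (0.971) for Camk2g in edgeR. Camk2g was also the steadiest of the 4 subunits between library numbers, between 54.6 and 84.6 CPM over all 20 libraries.

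The share of each subunit in the Camk2 reads of a library describes the makeup of CaMKII RNA, not of the protein. In control, Camk2b held 58.2 ± 1.95% of Camk2 reads, Camk2d 32.7 ± 3.74%, Camk2g 8.66 ± 2.56% and Camk2a 0.480 ± 0.131% (SD, n = 5). In shKdm6b Camk2b held 48.5 ± 5.66%, Camk2d 37.3 ± 2.09%, Camk2g 11.3 ± 4.86% and Camk2a 2.86 ± 0.878%. The active rescue had 52.0 ± 7.57%, 34.4 ± 2.26%, 11.3 ± 5.23% and 2.27 ± 1.17% in the same order of subunits, and the dead rescue 51.2 ± 4.49%, 36.4 ± 2.69%, 10.3 ± 4.12% and 2.11 ± 1.21%. Camk2b remained the largest part of the Camk2 reads in each group, and Camk2a the smallest.

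The Camk2a share was 0.395, 0.531, 0.619, 0.558 and 0.296% in control libraries 1 to 5, and 2.96, 2.51, 2.59, 4.29 and 1.95% in shKdm6b. It was 1.91, 1.64, 2.38, 4.21 and 1.20% in the active rescue and 1.57, 1.76, 2.64, 3.88 and 0.690% in the dead rescue. No library of these 3 groups overlapped control, and library 4 was the highest of each of the 3. The share was higher than control by 2.38 percentage points in shKdm6b, 1.79 in the active rescue and 1.63 in the dead rescue (exact two-sided permutation p = 0.00794 each, the smallest that 5 against 5 libraries allow; adjusted over 24 share comparisons 0.0476). With the 5 pairs kept together, an exact sign-flip test gave p = 0.0625, its smallest possible value. Leaving out any control library, or shKdm6b 4, raised the adjusted p to between 0.0635 and 0.127. Without all libraries numbered 4 the differences were 2.04, 1.32 and 1.21 points (exact permutation test, adjusted p = 0.171 each). No library overlapped control there either, so the unadjusted p was the smallest that 4 against 4 libraries allow. The higher adjusted p thus comes with fewer libraries and does not show that the differences rest on number 4. Counted per kilobase of the longest coding transcript, the Camk2a share was 0.423% in control, 2.56% in shKdm6b, 2.01% in the active and 1.88% in the dead rescue. The Camk2a share was lower in the active rescue than in shKdm6b in 5 of 5 pairs, with a mean difference of -0.593 points, but the groups overlapped (exact permutation p = 0.357, adjusted 0.639).

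The Camk2b share moved the other way. It was 58.2, 58.5, 54.9, 59.3 and 59.9% in control and 53.2, 52.7, 48.7, 39.1 and 48.8% in shKdm6b. All shKdm6b libraries lay below all control libraries, and the mean difference was -9.69 points (exact permutation p = 0.00794, adjusted 0.0476). The differences of -6.16 points in the active rescue and -6.94 in the dead rescue did not pass after adjustment (adjusted p = 0.136 and 0.0762, exact permutation tests), and both groups overlapped control. The Camk2d share was higher in shKdm6b than in control in 5 of 5 pairs, by 4.64 points (exact permutation p = 0.0397, adjusted 0.136), and the Camk2g share in 5 of 5 pairs, by 2.67 points (p = 0.365, adjusted 0.639). Shares of a library make up a whole, so a lower Camk2b share means a higher sum of the others. The levels of Camk2d and Camk2g themselves differed by log2 fold changes of -0.13 and 0.02 (paired edgeR), neither called.

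**Figure D3:**
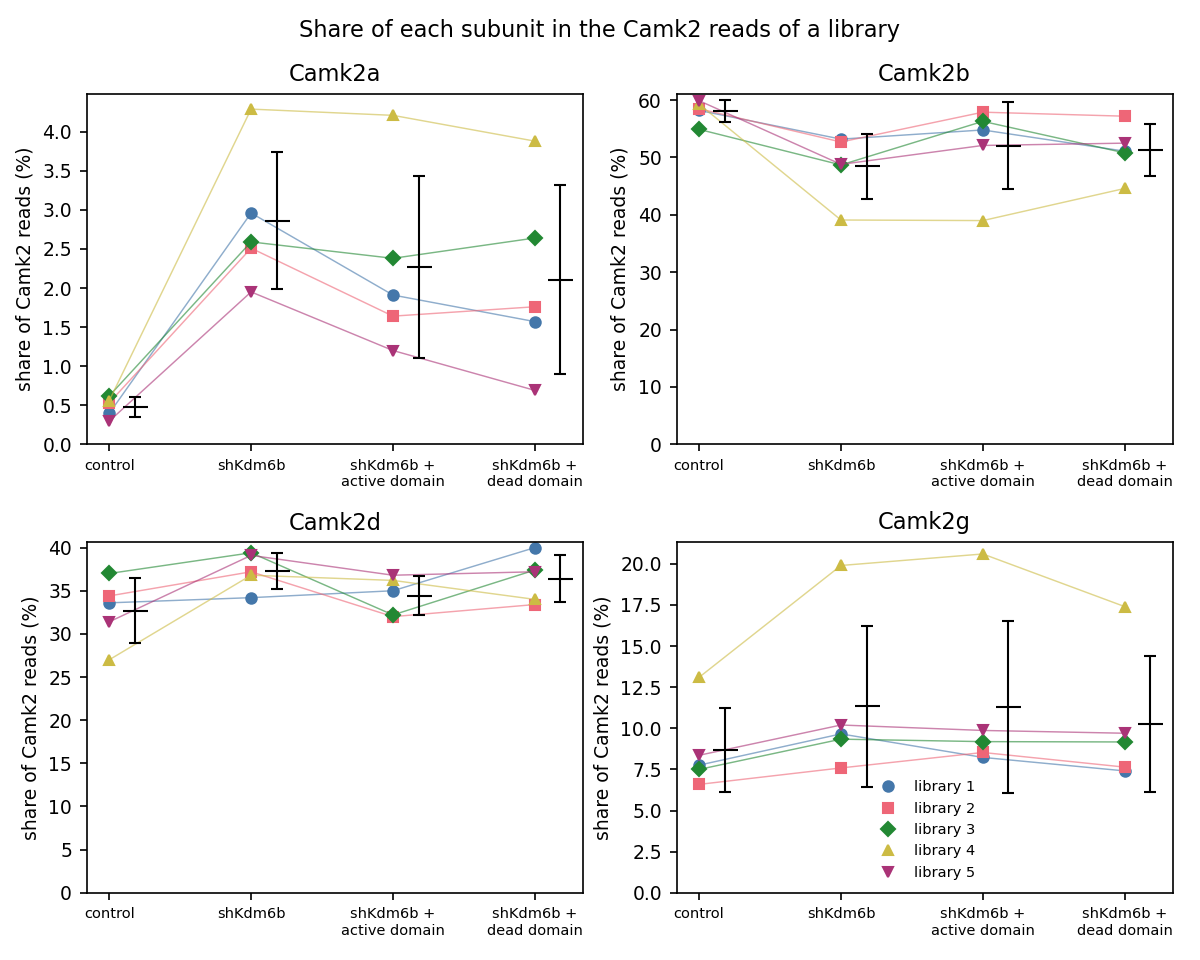
Share of Camk2 reads taken by each of the 4 subunits, in percent, in each library. Lines join libraries of the same number and black bars give the mean ± SD (n = 5). The Camk2a share averages 0.480% in control and 2.86% in shKdm6b, and the Camk2b share 58.2% and 48.5%.

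The ratio of beta to alpha subunit RNA, per kilobase, joined both shifts. It was 162 ± 55.9 in control, 22.7 ± 7.22 in shKdm6b, 34.7 ± 15.9 in the active rescue and 42.4 ± 30.8 in the dead rescue. The log2 ratio differed from control by -2.85, -2.33 and -2.16 (exact permutation p = 0.00794, adjusted over 6 comparisons 0.0159 each), and it was lower in 5 of 5 pairs each time. The ratio of beta to delta was 2.48 ± 0.364 in control and 1.79 ± 0.258 in shKdm6b, a log2 difference of -0.47 that did not pass (exact permutation p = 0.0159, adjusted 0.0714). The summed CaMKII RNA was 829 ± 240 CPM in control, 681 ± 250 in shKdm6b, 710 ± 225 in the active and 716 ± 200 in the dead rescue. It was lower than control in 5 of 5 pairs in all 3 groups, but the groups overlapped (exact permutation p = 0.437, 0.492 and 0.5).

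The nuclear branch also differed in the paired fit. Camk4 (chr18:32934931-33191228, plus strand), the most abundant CaM kinase here per kilobase, was at 972, 1030, 527, 226 and 1040 CPM in control and 806, 776, 317, 84.1 and 733 in shKdm6b. Its level differed more between library numbers than between groups, and shKdm6b was lower in each pair. The log2 fold change was -0.67 ± 0.15 in the paired fit (adjusted p = 0.0175) and -0.48 without pairing (adjusted p = 1, edgeR). The paired call was lost without shKdm6b 3 (adjusted p = 0.0512) and in the libraries numbered 1 to 3 alone (log2 fold change -0.47, adjusted p = 0.17, edgeR), and numbers 4 and 5 alone gave -0.97 (0.485). The rescues were at -0.39 (adjusted p = 0.25) and -0.48 (0.17) against control in the paired edgeR fit. Camk4 overlaps an antisense gene, 2310026I22Rik, and whether reads were counted by strand is not stated.

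The kinases upstream of Camk4 are Camkk1 and Camkk2, which phosphorylate its activation loop. Camkk1 (chr11:73019008-73042073, plus strand) was at 29.8, 28.1, 20.9, 18.7 and 29.0 CPM in control and 18.9, 22.3, 15.2, 7.17 and 17.7 in shKdm6b. It was lower in shKdm6b in every pair, with overlap of the groups only through shKdm6b 1 and 2 and control 3 and 4. The log2 fold change was -0.70 ± 0.13 in the paired fit (adjusted p = 0.00565) and -0.64 without pairing (adjusted p = 1, edgeR). Without the libraries numbered 4 it was -0.57 (adjusted p = 0.00311, paired edgeR), in numbers 1 to 3 alone -0.48 (0.0586), and in numbers 4 and 5 alone -1.04 (0.422). In the dead rescue Camkk1 was lower than control in 5 of 5 pairs at -0.52 ± 0.13 (adjusted p = 0.0702), and in the active rescue in 4 of 5 at -0.46 ± 0.13 (0.0952), neither past the threshold in the paired edgeR fit. DESeq2 with pairing called both (adjusted p = 0.00975 in the dead and 0.0225 in the active rescue). Without the libraries numbered 4, paired edgeR called the dead rescue (0.0152) and not the active rescue (0.0589).

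Camkk2, which also activates the energy sensor AMPK, was at 190, 209, 153, 78.0 and 266 CPM in control and 170, 195, 135, 42.4 and 161 in shKdm6b. In the active rescue it was at 198, 235, 193, 70.5 and 194 CPM, and in the dead rescue at 176, 187, 131, 63.1 and 175. All groups overlapped, with library 4 lowest in each. Its log2 fold change in shKdm6b was -0.41 ± 0.11 (paired edgeR, adjusted p = 0.0515), just short of the threshold. It passed in DESeq2 with pairing (-0.42, adjusted p = 0.0125) and in paired edgeR without control 3 (0.0481), shKdm6b 2 (0.0359), active rescue 3 (0.049) or active rescue 4 (0.037). The active rescue exceeded shKdm6b in 5 of 5 pairs by 0.39 ± 0.11 and the dead rescue in 5 of 5 pairs by 0.28 ± 0.11, but neither passed (paired edgeR, adjusted p = 0.658 and 1).

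**Figure D4:**
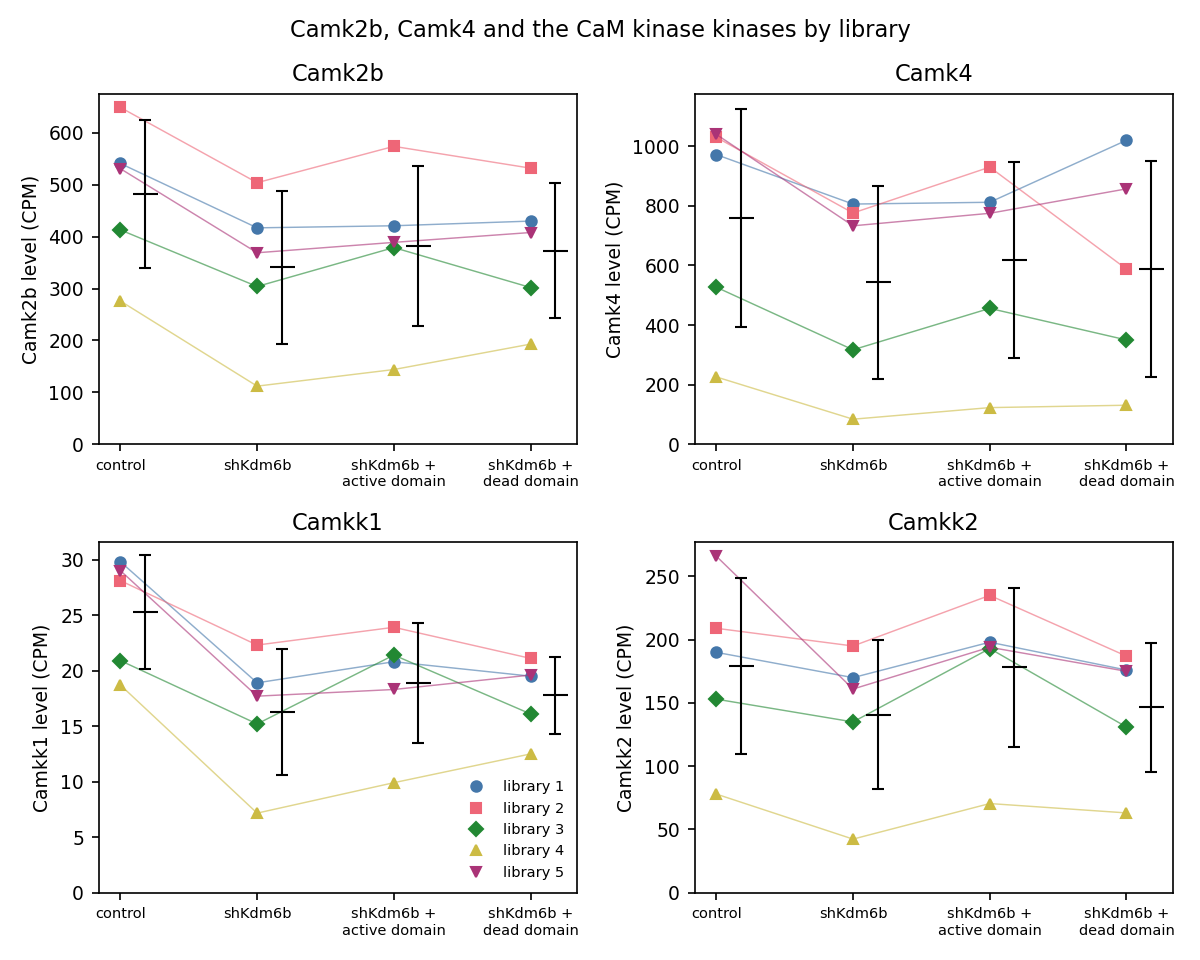
Level in CPM of Camk2b, Camk4, Camkk1 and Camkk2 in each library. Lines join libraries of the same number and black bars give the mean ± SD (n = 5). Library 4 is the lowest of its group in all panels, and shKdm6b lies below control in each of the 5 pairs for all 4 genes.

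The CaMKI isoforms and Camkv were low. Camk1d was at 17.7 ± 2.83 CPM in control and 18.2 ± 2.12 in shKdm6b, with a log2 fold change of 0.04 (paired edgeR, adjusted p = 0.967). Camk1g, which in neurons acts in dendrite growth, was at 2.62, 1.95, 2.18, 2.13 and 1.87 CPM in control and 0.93, 1.01, 1.77, 2.71 and 0.666 in shKdm6b. Only number 4 was higher in shKdm6b, and the log2 fold change of -0.63 ± 0.34 did not pass (adjusted p = 0.422, paired edgeR).

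Camkv encodes a pseudokinase of synaptic vesicles and spines that binds calmodulin without kinase activity. Control libraries had 0.943, 0.499, 0.059, 3.66 and 1.52 CPM, from 1 to 62 estimated counts. The active rescue had 2.97, 3.02, 1.07, 7.62 and 2.30 CPM, and shKdm6b had 3.5, 1.91, 0.589, 7.68 and 1.82. Library 4 was the highest and library 3 the lowest in all of these groups, and all groups overlapped. In the active rescue 2 of 10 CaM kinases, Camk2a and Camkv, were called higher and 0 lower in the paired fit, beside 1.96% of all genes (1.09% higher, 0.87% lower), and 0 of 10 without pairing, where 0.0% of all genes were called and 1 of the 10 had an unadjusted p under 0.05 (DESeq2 without pairing called 1). The Camkv log2 fold change was 1.57 ± 0.38 (paired adjusted p = 0.0458, without pairing 1, edgeR), a call that held in 7 of 20 fits leaving out 1 library each (adjusted p up to 0.129). DESeq2 with pairing also called it (0.00297). With the 2 compared groups alone its adjusted p was 0.29, and in numbers 1 to 3 alone its log2 fold change was 2.31 (0.0385), in 4 and 5 alone 0.81 (0.549), all in paired edgeR fits. In shKdm6b it was 1.31 ± 0.38 (adjusted p = 0.0711, paired edgeR), higher in 5 of 5 pairs. There it passed in DESeq2 with pairing (adjusted p = 0.0175), in paired edgeR with the compared groups alone (0.0208), and without control 5 (0.0322), active rescue 4 (0.0462) or dead rescue 1 (0.0369). In the dead rescue 1 of 10 genes, Camk2a, was called in the paired fit, higher (1.18% of all genes, 0.576% higher and 0.608% lower), and 0 of 10 without pairing (0.0% of all genes; 1 of the 10 at an unadjusted p under 0.05, and 1 called by DESeq2). Camkv there was at 1.05 (adjusted p = 0.275, paired edgeR), with 3 of 5 pairs higher.

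**Figure D5:**
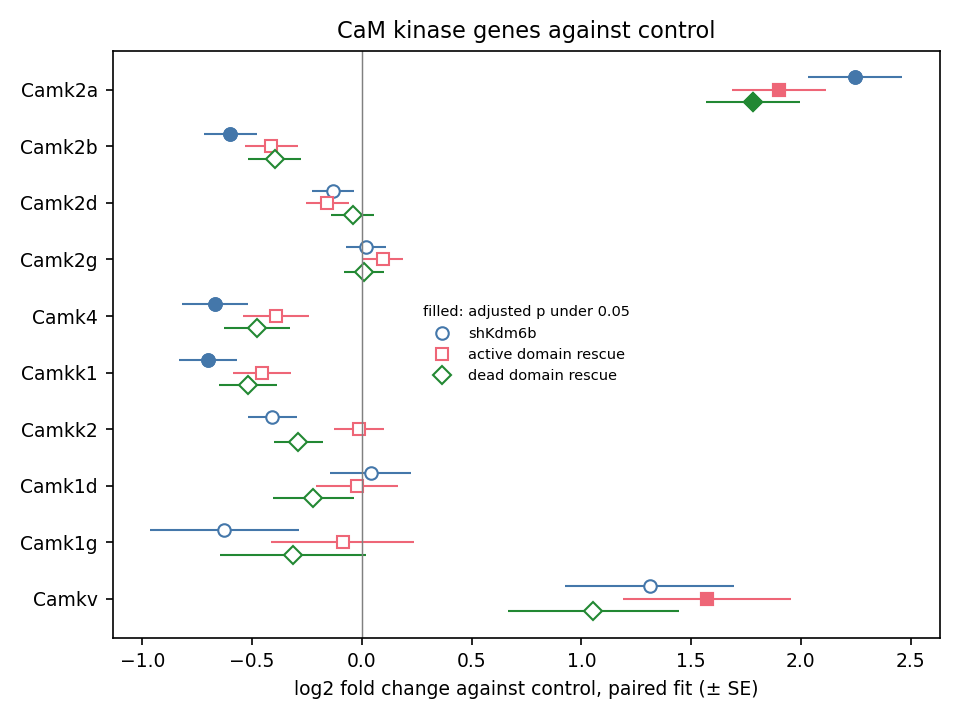
Log2 fold change (± SE) of each CaM kinase gene against control in the paired fit, with 1 symbol for each of shKdm6b, active and dead rescue. Filled symbols passed an adjusted p of 0.05. Camk2a lies at 2.25, 1.90 and 1.78, and Camk2b, Camk4 and Camkk1 are filled in shKdm6b alone; the 3 groups share the control libraries.

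A gene past the threshold in shKdm6b and not in a rescue is not thereby shown to differ between them, and the direct comparisons of rescues with shKdm6b called 0 of 10. All 3 comparisons with control also use the same 5 control libraries, so their values are set side by side only.

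Beyond the kinases, lists of genes around them were counted in the paired fit against control, to be read beside all genes (in shKdm6b 1.72% higher and 2.41% lower, in the active rescue 1.09% and 0.87%, in the dead rescue 0.576% and 0.608%). The lists, too, were chosen with earlier results of these data known, so counts above these shares are descriptions only. Of 9 genes for calmodulin, calmodulin-binding peptides and CaMKII inhibitors, 4 were higher and 0 lower in shKdm6b, with a list median log2 fold change of 0.30 beside 0.01 over all genes. These were Gap43, a growth cone protein that binds calmodulin at rest (0.85 ± 0.11, adjusted p = 0.000401), the calmodulin-binding peptide Pcp4 (1.28 ± 0.19), its relative Pcp4l1 (0.49 ± 0.11) and Camk2n1, a CaMKII inhibitor (0.42 ± 0.09, adjusted p = 0.0122, edgeR). In the active rescue 3 of 9 were higher (1.09% of all genes) and in the dead rescue 2 of 9 (0.576%), Gap43 and Pcp4 among them each time.

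Of 20 synaptic substrates and anchors of CaMKII, 1 was higher and 3 lower in shKdm6b, where 1.72% of all genes were higher and 2.41% lower. The syntaxin Stx1a was at 1.04 ± 0.15, while Dlgap1 (-0.82 ± 0.10) and Shank3 (-0.68 ± 0.13), scaffolds of the postsynaptic density, and the Rac activator Tiam1 (-0.50 ± 0.10) were lower. Of 22 nuclear targets of CaM kinase signalling, 0 were higher and 4 lower (2.41% of all genes): the immediate early genes Nr4a1 (-0.93 ± 0.19) and Egr1 (-0.36 ± 0.08), and the class IIa deacetylases Hdac5 (-0.28 ± 0.07) and Hdac9 (-0.75 ± 0.20). Of 15 genes of calcium entry and release, the NMDA receptor subunit Grin2c was lower (-1.47 ± 0.28) and 0 were higher. Of 11 phosphatases that oppose these kinases, Ppp1cc was lower (-0.28 ± 0.07) and 0 were higher. Against control, both rescues also had Stx1a called higher and Dlgap1 and Egr1 lower. Nr4a1 was called lower in the active rescue and Grin2c in the dead rescue. No other gene of these 4 lists was called in a rescue. Of all genes, 1.09% were higher and 0.87% lower in the active rescue, and 0.576% and 0.608% in the dead rescue. None of 15 other calmodulin-regulated or related kinases and none of 10 further targets of the CaM kinase kinases were called. Without pairing 0 genes of any of these 7 lists were called in any comparison, and with pairing 0 were called between rescues and shKdm6b or between the rescues.

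The genes whose pattern over the 20 libraries was most like Camk2a were found by correlation of log2 CPM after removing the mean of each library number, among 11643 genes with a mean of 5 CPM or more over all 20 libraries. That limit admits genes that are low in control and high in the other groups, such as Hoxd3. They were Hoxd3 (r = 0.975), Barhl1 (0.973), Hrk (0.972), Celf6 (0.971) and Rit2 (0.970). Hoxd3, a homeobox gene, went from 0.383 CPM in control to 17.6 in shKdm6b, and Hrk, which promotes cell death, from 31.6 to 82.5. For Camkv they were Mid1 (0.911), Psd (0.906), Tubb2b (0.898), Cyb561 (0.886) and Ctxn1 (0.882). Among the members, Camk2b ran closest with Camkk1 (r = 0.972) and Camk4 (0.893), and Camk2a ran against Camkk1 (-0.771) and Camk2b (-0.754). These points share libraries and group differences, so the values are descriptions.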

How the data were processed

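Gene expression was measured by RNA-seq in 20 libraries, with genome build mm10 per the submitters' processing notes. The authors deposited 1 table of estimated counts per gene symbol, merged from salmon per the file name; its version, annotation and strandedness are not stated by them. Counts were rounded. Genes were kept with filterByExpr in edgeR 4.0.16 (R 4.3.3; 15284 of 24411 kept, 9127 removed), scaled by TMM and compared with the robust quasi-likelihood test over all 4 groups, threshold 0.05 after Benjamini-Hochberg adjustment. The design without pairing was main. Library numbers were then checked as pairs, by correlation of deviations from group means, which by itself lowers r between different numbers. All 30 same-numbered pairs deviated together (r 0.361 to 0.881). The 120 other pairs had a median r of -0.205 and a highest of 0.572, so the ranges overlapped. A fit with number as block is therefore given beside the main design. DESeq2 1.42.0, other filters and scaling, leaving out libraries, and other transcript lengths for shares were alternatives, the median length being added after seeing the data. Log2 CPM used a prior count of 1. Fits were tested on simulated data. Transcript lengths and positions came from GENCODE M21 (GRCm38), promoters from RefSeq. Single values were compared by exact permutation tests. The members and lists were chosen with earlier results of these data known. All members are named, and from each list up to 4 called genes with the lowest paired p. Salmon can split reads between paralogs; Camk2a counts were within 0.001 of whole in every library.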

Additional observations from a re-analysis of the deposited data

Results flagged for a closer look

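Of 56 sets of 5 libraries tested for a library that stands apart from the others of its group, 7 held such a library, where chance gives about 1 in 20. The share of Camk2g in Camk2 reads accounted for 4 of them, and each time the library was number 4: 13.1% in control, 19.9% in shKdm6b, 20.6% in the active rescue and 17.4% in the dead rescue. Camk2g itself was at 57.0 to 75.8 CPM in the libraries numbered 4, while Camk2b was at 112 to 276. The summed granule marker level was the lowest of its group in these libraries. Their part in the share was not tested. Active rescue 5 stood apart in Camk2a at 8.98 CPM, below the other libraries of that group. Active rescue 4 stood apart in Camkk2 at 70.5 CPM, and dead rescue 4 in Camkv at 9.42 CPM. All of the 7 except the Camk2a set were thus libraries numbered 4. The sets share genes and libraries, so the 7 are not separate events to be set against 1 in 20.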

How the results depend on the processing

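Without pairing, 1 member was called in shKdm6b against control; the replicate block gave 4, DESeq2 with the block 6, the block without the libraries numbered 4 gave 4, with numbers 1 to 3 alone 2, with numbers 4 and 5 alone 0, and with the compared groups alone 5. For the active rescue against control these were 0 without pairing, then 2, 4, 3, 2, 0 and 0, with 1 in DESeq2 without the block. For the dead rescue against control they were 0, then 1, 3, 3, 1, 0 and 1, with 1 in DESeq2. Leaving out 1 library, with or without the block, gave 0 to 6, 0 to 4 and 0 to 3 called members in these comparisons, and 0 to 0 in the other 3. DESeq2's size factors and no filter on low counts left the counts at 1, 0 and 0. The block changed no call other than those given. The share of all genes called is given only for edgeR over all 20 libraries. It was 4.14%, 1.96% and 1.18% with the block and 0.00654%, 0.0% and 0.0% without, for shKdm6b, active and dead rescue. Counts from the other settings cannot be set beside such a share. Numbers 4 and 5 alone leave 2 libraries per group, and the Camk2a log2 fold change in shKdm6b there was 2.39.

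The Camk2a share difference ran from 2.02 to 2.61 points in shKdm6b, 1.3 to 2.06 in the active rescue and 1.19 to 1.98 in the dead rescue against control when 1 library was left out. Without the libraries numbered 4 it was 2.04, 1.32 and 1.21. Pairing left the differences at 2.38, 1.79 and 1.63 with a sign-flip p of 0.0625. Between groups it ran from -1.08 to -0.234 (active rescue against shKdm6b), -1.2 to -0.393 (dead rescue against shKdm6b) and -0.327 to 0.603 (active against dead rescue). The Kdm6b difference was -0.828 with pairs (sign-flip p 0.0625) and -1.02 to -0.569 with 1 library left out.

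Differences near 0 changed sign with the libraries used. Over the fits leaving out 1 library, log2 fold changes in shKdm6b ran from -0.323 to 0.0597 for Camk2d, -0.0612 to 0.0689 for Camk2g and -0.118 to 0.121 for Camk1d, that of Camkv in the dead rescue from -0.011 to 1.92, and that of Camk2a between the rescues from -0.121 to 0.307. Camk2g was -0.0203 in numbers 4 and 5 alone with the block. Camk1d was -0.017 in numbers 1 to 3 alone with the block, and -0.0298 without number 4 (-0.0323 with the block). In points of share, Camk2b between the rescues ran from -0.86 to 4.03. Camk2g ran from -1.31 to 2.8 between the rescues, -2.38 to 2.07 and -2.86 to 1.06 for active and dead rescue against shKdm6b, and -0.184 to 2.72 for the dead rescue against control. Camk2d was -0.104 in the active rescue against control without number 4. The causes were not tested. Counts of 1 to 62 for Camkv in control limit its precision.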
